A study of Saccharomyces cerevisiae with 72 samples.

Results

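The 10 genes described here encode the mitotic exit network of budding yeast and the Polo kinase that acts on it: the kinases Dbf2, Dbf20, Cdc15 and Cdc5, the activator Mob1, the GTPase Tem1, its regulators Lte1, Bub2 and Bfa1, and the scaffold Nud1. They were taken by name from the deposited expression tables and make up 10 of 6857 genes in a table for Yox1 and 10 of 6865 genes in a table for Yhp1. Yox1 and Yhp1 are paralogous homeodomain repressors that act at genes bound by Mcm1, and the study asked which transcripts change when either repressor, or a form of it that Cdk1 cannot phosphorylate, is expressed acutely. RNA was sequenced from asynchronous cultures in rich medium, in 72 libraries, with n = 3 libraries, called biological replicates, for each of 8 strains at 0, 20 and 60 min of 1 uM estradiol.

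In the 4 inducible strains (Z3EVp_YOX1, Z3EVp_yox1_9A, Z3EVp_YHP1 and Z3EVp_yhp1_13A) the promoter Z4pr stood before the repressor gene, which carried a 3V5 tag and the KanMx marker. In the 4 control strains (ctrl_YOX1, ctrl_yox1_9A, ctrl_YHP1 and ctrl_yhp1_13A) the same tagged allele stayed at its own promoter and Z4pr stood before HO, which is not functional in this background. The strains with yox1_9A and yhp1_13A lacked the Cdk1 sites of the repressor. Every strain was MATa with ura3delta0, his3delta1 and lypdelta0, had STE2pr-SpHIS5 in place of CAN1, and expressed from the ACT1 promoter, beside a repaired HAP1, the estradiol-dependent activator Z3EV that binds Z4pr. Each genotype was 1 named strain, so strain and genotype cannot be told apart.

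The network ends mitosis. Tem1 at the spindle pole body is held inactive by the GTPase-activating pair Bub2 and Bfa1 until the spindle enters the bud, where Lte1 resides. Active Tem1 recruits Cdc15, which with the scaffold Nud1 brings Mob1 and its kinase partner Dbf2 to the pole, and Dbf2 with Mob1 keeps the phosphatase Cdc14 out of the nucleolus so that mitotic cyclins are destroyed and cytokinesis begins. Cdc5 phosphorylates Bfa1 and further promotes the release of Cdc14. Several of these genes belong to the set transcribed as cells enter mitosis, for which Mcm1 and forkhead factors bind side by side.

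Values are TPM, a transcript level scaled to gene length and to a fixed total per library. The induced genes followed their labels. YOX1 reached 1113 to 1245 TPM at 20 min and 726 to 1223 TPM at 60 min in Z3EVp_YOX1, against 29.7 to 31.4 TPM at 0 min, and 440 to 845 TPM and 591 to 652 TPM in Z3EVp_yox1_9A, against 19.2 to 24.8 TPM. YHP1 reached 754 to 903 TPM in Z3EVp_YHP1 and 737 to 914 TPM in Z3EVp_yhp1_13A, against 19.9 to 23.8 TPM at 0 min in these strains. The controls had more at 0 min. YOX1 averaged 116 TPM in ctrl_YOX1 and 110 TPM in ctrl_yox1_9A, and YHP1 62.0 TPM in ctrl_YHP1 and 44.3 TPM in ctrl_yhp1_13A. Induction thus started from less repressor mRNA than the own promoter gave. In Z3EVp_YOX1, YHP1 itself fell from 79.2 to 96.4 TPM at 0 min to 11.1 to 12.2 TPM at 20 min. Genes specific to a cells summed to 762 TPM or more in every library and those specific to alpha cells to 39.5 TPM or less, as befits MATa strains. Libraries held 20426368 to 22771006 fragments in genes whose length could be matched, and the 10 genes had between 81 and 4039 fragments each in any library. Replicate 1 of Z3EVp_yox1_9A at 20 min, with 845 TPM of YOX1 against 440 and 526 TPM in replicates 2 and 3, and replicate 1 of Z3EVp_YOX1 at 60 min, with 726 TPM against 1188 and 1223 TPM, stood apart, so values of DBF2, MOB1, TEM1 and CDC5 at those times are also given without them. Each library was left out alone. Replicate 1 of Z3EVp_yox1_9A was also the highest of its group for these genes at 0 min. The 20 min values are therefore given without that 0 min library too. Replicate 1 of ctrl_YOX1 at 60 min was low as well, with 94.1 TPM of YOX1 against 145 and 159 TPM, and stayed in.

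The 10 genes lie on 7 chromosomes of the R64 genome, each apart from any annotated neighbour that would overlap it. DBF2 (YGR092W, chromosome VII, 668189 to 669907, plus strand) and DBF20 (YPR111W, chromosome XVI, 747306 to 749000, plus strand) are paralogs with 1 exon each. MOB1 (YIL106W, chromosome IX, 166415 to 167444, plus strand) has 2 exons. TEM1 (YML064C, 145139 to 145876), CDC5 (YMR001C, 269019 to 271136) and BUB2 (YMR055C, 386101 to 387021) lie on the minus strand of chromosome XIII. CDC15 (YAR019C, 172211 to 175135) and LTE1 (YAL024C, 101565 to 105872) are on the minus strand of chromosome I, BFA1 (YJR053W, 534027 to 535751) on the plus strand of chromosome X and NUD1 (YOR373W, 1036834 to 1039389) on the plus strand of chromosome XV. The coding sequences of DBF2 and DBF20 were 73.34% identical over 1669 aligned bases and shared no run longer than 21 bases. How reads were shared between them was not tested.

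Because the repressors act through promoters, the upstream sequences of DBF2, the member with the largest change, of its paralog and of the Polo kinase are shown. Each runs 5′ to 3′ on the gene's own strand, from 250 bases before the start codon to 50 bases from it, and was read from the RefSeq R64 genome. Capitals mark matches, sought on both strands, to CC and GG with 6 bases of any kind between them (the core of an Mcm1 box), TAATTA (a homeodomain core) and GTAAACA (a forkhead core). These letters were chosen with the factors of the study in mind, and a match is not evidence of binding.
DBF2, chrVII:667939-668238: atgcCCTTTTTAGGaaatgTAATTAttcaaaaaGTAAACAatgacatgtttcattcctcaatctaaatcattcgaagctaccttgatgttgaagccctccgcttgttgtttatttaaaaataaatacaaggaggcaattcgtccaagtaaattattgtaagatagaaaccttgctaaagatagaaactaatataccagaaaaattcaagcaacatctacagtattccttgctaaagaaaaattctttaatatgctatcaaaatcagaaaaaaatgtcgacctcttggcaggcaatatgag
DBF20, chrXVI:747056-747355: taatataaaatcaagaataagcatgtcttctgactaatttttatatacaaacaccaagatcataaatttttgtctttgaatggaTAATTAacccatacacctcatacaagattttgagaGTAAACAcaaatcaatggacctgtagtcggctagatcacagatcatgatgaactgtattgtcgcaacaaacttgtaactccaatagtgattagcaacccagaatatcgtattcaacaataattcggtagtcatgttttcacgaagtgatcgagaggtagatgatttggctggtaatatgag
CDC5, chrXIII:271087-271386, minus strand: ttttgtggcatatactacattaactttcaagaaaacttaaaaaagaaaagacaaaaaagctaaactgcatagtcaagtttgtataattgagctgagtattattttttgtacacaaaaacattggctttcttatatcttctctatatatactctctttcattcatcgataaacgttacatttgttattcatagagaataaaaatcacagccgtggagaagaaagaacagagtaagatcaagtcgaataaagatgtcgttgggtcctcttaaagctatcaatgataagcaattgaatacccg
The DBF2 window held all 3 kinds of match close together, at -246 to -237, -231 to -226 and -217 to -211 from the coding start, in the order Mcm1 box, homeodomain, forkhead. Its paralog DBF20 had a homeodomain match at -166 to -161 and a forkhead match at -131 to -125 and no Mcm1 box core in these 300 bases. CDC5 had no match in this window.

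Of 6001 promoters of the same length, 29.2% held the Mcm1 box core, 15.3% the homeodomain core and 6.55% the forkhead core. Among 9 of the 10 genes, with MOB1 left out, 2 (DBF2 and TEM1), 2 (DBF2 and DBF20) and 5 (DBF2, DBF20, TEM1, LTE1 and NUD1) did. Only 17 promoters, or 0.283%, held all 3, and DBF2 was the single gene of the 9 among them. TEM1 carried a forkhead match at -153 to -147 and an Mcm1 box core at -128 to -119, with another in its coding sequence at 10 to 19. No match was found at CDC15, BUB2 or BFA1, which says only that these letters are not in these windows.

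**Figure D1:**
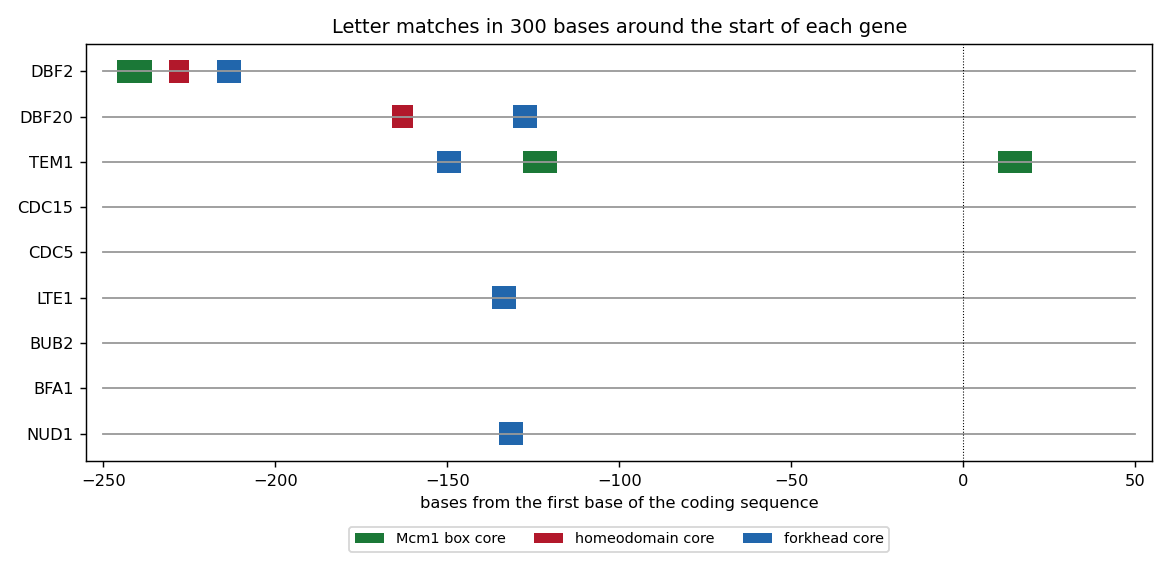
Letter matches in the 300 bases around the start of 9 of the genes, MOB1 left out, drawn by distance in bases from the first coding base. Green bars are Mcm1 box cores, red bars homeodomain cores and blue bars forkhead cores. DBF2 is the gene with all 3 kinds, within -246 to -211, and CDC15, CDC5, BUB2 and BFA1 have none.

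Before estradiol the genes spanned about an order of magnitude in level. In the table for Yox1, over 12 libraries at 0 min, MOB1 was most abundant at 67.8 TPM (SD 6.01), followed by CDC5 at 55.2 (8.07), TEM1 at 51.6 (9.98) and DBF2 at 30.5 (6.36), and BFA1 was least abundant at 6.26 (0.825). NUD1, BUB2 and DBF20 averaged 20.6 to 22.4 TPM. Each gene down to DBF20 overlapped its neighbour in this order, while CDC15 at 12.4 TPM (SD 0.850) lay apart from DBF20 above it and from LTE1 at 7.56 TPM (SD 0.952) below it. LTE1 and BFA1 overlapped. In the table for Yhp1 the order was the same for MOB1, CDC5, TEM1 and DBF2 and for CDC15, LTE1 and BFA1, with MOB1 at 76.5 TPM (SD 4.41) and BFA1 at 4.57 (1.21). None of the 10 genes differed between an inducible strain and its control at 0 min under the call defined next, beside 0.112%, 0.32%, 0.144% and 0.144% of all genes for Yox1, Yox1-9A, Yhp1 and Yhp1-13A. The number with an unadjusted p under 0.05 was 0, 0, 1 and 1 of 10. DBF2 was higher in each inducible strain than in its control at 0 min, by log2 0.41, 0.23, 0.10 and 0.29. The last had an unadjusted p of 0.0156 by limma. The induction values defined next subtract this 0 min difference.

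Changes are differences of log2(TPM + 1) from a limma fit over all 36 libraries of a table. An induction value is the change of an inducible strain from its 0 min libraries minus the same change of its control strain. A gene was called when its p, adjusted by Benjamini-Hochberg over all genes tested, was under 0.05 and its difference exceeded 0.58 in size, which corresponds to 1.5-fold. The 10 genes all exceeded the minimum mean of 1 TPM and were tested. Induction of Yox1 lowered 1 of the 10 at 20 min, where 2.4% of 6255 genes were called lower, and 1 at 60 min, beside 2.38%. Induction of Yox1-9A lowered 2 of 10 at both times, beside 2.17% and 3.18%. The gene lowered in all 4 was DBF2, joined by MOB1 after Yox1-9A. No member was called higher by limma or limma-voom, beside 0.16%, 0.368%, 0.176% and 1.15% of genes in these 4 comparisons, in which 3, 2, 3 and 4 members had an unadjusted p under 0.05 in either direction. The median over the 10 genes was -0.12, -0.17, 0.03 and 0.09, beside 0.02, 0.05, 0.065 and 0.13 over all genes.

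**Figure D2:**
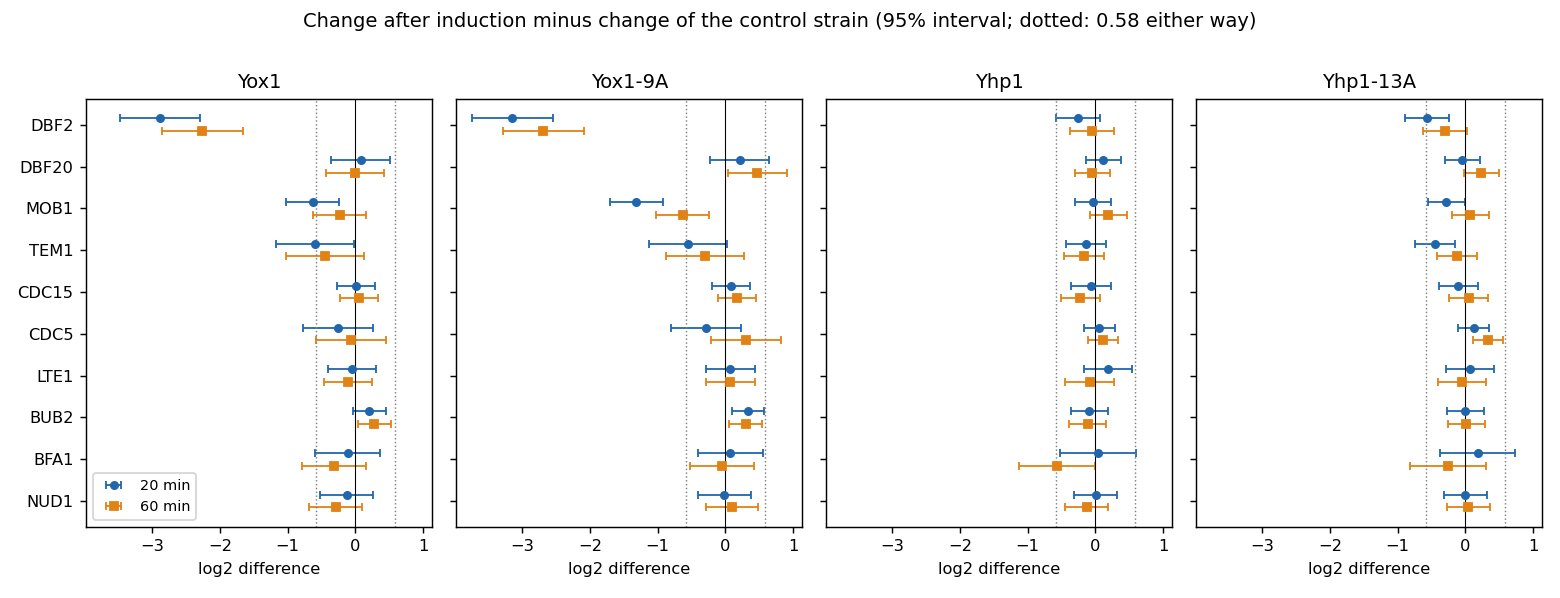
Log2 difference of each of the 10 genes after induction, with the change of the control strain subtracted, for Yox1, Yox1-9A, Yhp1 and Yhp1-13A. Points are estimates at 20 min (circles) and 60 min (squares), bars are 95% intervals and dotted lines mark 0.58 in either direction. DBF2 lies between -2.26 and -3.15 with Yox1 and Yox1-9A, and MOB1 at -1.31 with Yox1-9A at 20 min.

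DBF2, the kinase that executes the last step of the network, fell sharply within 20 min of Yox1. Its level was 5.09, 4.48 and 5.37 TPM in the 3 libraries of Z3EVp_YOX1 at 20 min and 5.45, 8.85 and 7.88 TPM at 60 min, against 39.7, 35.6 and 40.3 TPM at 0 min. In ctrl_YOX1 it was 32.6, 32.0 and 32.1 TPM at 20 min and 24.9, 29.5 and 32.5 TPM at 60 min, against 31.5, 24.2 and 31.3 TPM at 0 min. All 6 libraries with induced Yox1 lay below every library of the control strain. With the control subtracted, the log2 difference at 20 min was -2.88 (SE 0.29), a 7.38-fold decrease with a limma adjusted p of 2.97e-08. At 60 min it was -2.26 (SE 0.29), or 4.78-fold (adjusted p = 1.98e-06). Without replicate 1 of Z3EVp_YOX1 the value at 60 min was -2.08 (adjusted p = 1.42e-05), with replicate 1 of ctrl_YOX1, also the lowest of its group, kept.

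DBF2 also fell after Yox1-9A. It stood at 5.55, 1.80 and 2.31 TPM in Z3EVp_yox1_9A at 20 min and at 4.65, 3.15 and 3.07 TPM at 60 min, against 36.1, 26.2 and 26.5 TPM at 0 min. The control ctrl_yox1_9A had 31.1, 26.6 and 28.4 TPM at 20 min, 23.2, 23.5 and 25.6 TPM at 60 min and 30.3, 22.7 and 22.2 TPM at 0 min. Again no induced library reached any control library. At 20 min the log2 difference of -3.15 (SE 0.29, adjusted p = 5.35e-09) corresponded to 8.85-fold. The difference at 60 min was -2.68 (SE 0.29, adjusted p = 5.93e-08), which is 6.43-fold. Replicate 1 at 20 min, the library with the most YOX1 mRNA, had the highest DBF2 of its group, and without it the value was -3.51 (adjusted p = 3.89e-12). Replicate 1 was also the highest at 0 min, and without that library instead the 20 min value was -3.00 (adjusted p = 4.41e-08). The lowest DBF2 level of the series, 1.80 TPM, still rested on 81 fragments. A pseudocount of 1 understates the change of such low values, and limma-voom on recovered fragments gave -3.58 at 20 min.

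**Figure D3:**
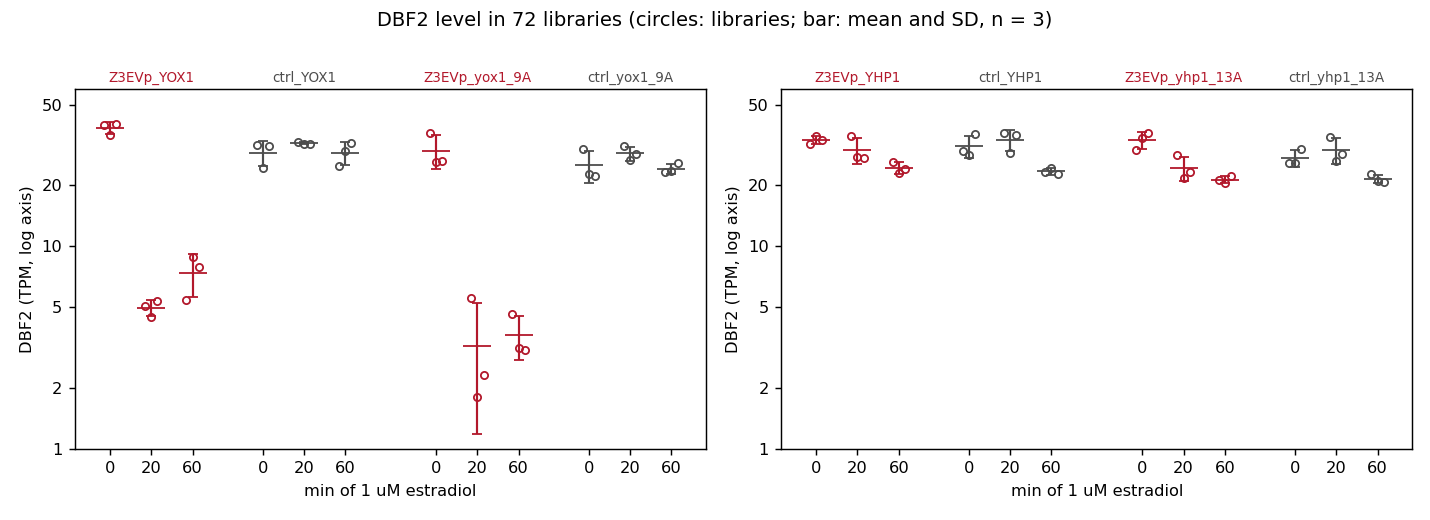
DBF2 level in TPM on a log axis in all 72 libraries, by strain and by min of estradiol, with the inducible strain (red) left of its control (grey) for each allele. Circles are libraries and bars are the mean and SD of 3. Induced Yox1 and Yox1-9A libraries lie between 1.80 and 8.85 TPM, and all others at 20.6 TPM or higher.

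With Yhp1 the same gene was not called. In Z3EVp_YHP1 it had 35.1, 27.7 and 27.2 TPM at 20 min and 26.0, 23.0 and 24.1 TPM at 60 min, against 31.8, 34.8 and 33.5 TPM at 0 min, while ctrl_YHP1 had 36.1, 28.9 and 35.3 TPM, 23.3, 24.3 and 22.6 TPM, and 29.6, 28.2 and 35.7 TPM at 20, 60 and 0 min. The 60 min libraries of both strains lay below their 0 min libraries, and the groups overlapped each other. The induction value was -0.26 (95% interval -0.58 to 0.07) at 20 min and -0.05 (-0.37 to 0.28) at 60 min. After Yhp1-13A, DBF2 had 28.1, 21.6 and 23.3 TPM at 20 min and 21.3, 20.6 and 22.2 TPM at 60 min, against 30.0, 34.3 and 36.3 TPM at 0 min. Its control ctrl_yhp1_13A had 34.7, 26.4 and 28.5 TPM, 22.6, 21.0 and 20.7 TPM, and 25.6, 25.8 and 30.2 TPM at 20, 60 and 0 min, so that induced and control libraries overlapped at both times. The induction value was -0.57 (-0.90 to -0.25, adjusted p = 0.213) at 20 min and -0.30 (-0.62 to 0.03) at 60 min. These intervals leave room for a modest decrease with Yhp1-13A and none for a decrease of the size seen with Yox1. None of the 10 genes was called in any Yhp1 or Yhp1-13A induction, beside 0.0803%, 0.0642%, 0.337% and 0.482% of 6230 genes called lower at 20 and 60 min of each and 0.0161% called higher in each. The number with an unadjusted p under 0.05 was 0, 1, 3 and 1, and limma-voom on recovered fragments called 0 of 10 in each as well.

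DBF20, the paralog of DBF2 with a partly redundant role, was not called in any induction. It had 23.3, 25.7 and 25.7 TPM in Z3EVp_YOX1 at 20 min, against 20.2, 20.9 and 24.3 TPM at 0 min, and 24.5, 17.9 and 19.8 TPM in Z3EVp_yox1_9A at 20 min, against 21.7, 17.1 and 16.4 TPM. These libraries overlapped their 0 min groups. At 20 and 60 min the induction value was 0.08 and 0.00 with wild-type Yox1, and 0.21 and 0.47 (adjusted p = 0.233) with Yox1-9A. Within a library the ratio of DBF2 to DBF20, both in TPM, was 0.1001 to 0.362 in the 12 libraries with induced Yox1 or Yox1-9A, against 0.925 to 1.97 in the 24 other libraries of the table. DBF20 was thus the more abundant paralog in each of those 12 libraries. With Yhp1 or Yhp1-13A the ratio was 1.03 to 1.77 in 12 libraries, against 1.23 to 1.97 in 24.

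MOB1 encodes the subunit that Dbf2 needs for kinase activity, and it fell less than its partner. After 20 min it had 30.7, 20.0 and 19.8 TPM in Z3EVp_yox1_9A, against 70.9, 59.8 and 54.5 TPM at 0 min, while ctrl_yox1_9A had 63.2, 63.2 and 65.9 TPM, against 65.6, 67.2 and 68.5 TPM at 0 min. The induced libraries lay below all of these, at a log2 difference of -1.31 (SE 0.19, adjusted p = 1.85e-05), which is a decrease of 2.49-fold. Without replicate 1 at 20 min the log2 difference was -1.52 (adjusted p = 2.14e-07). Without replicate 1 at 0 min instead, it was -1.21 (adjusted p = 0.000137). At 60 min the strain had 37.8, 37.1 and 36.3 TPM, against 54.8, 61.2 and 76.0 TPM in its control. This difference of -0.63 (SE 0.19, adjusted p = 0.0417) passed the thresholds narrowly, and the call was lost when any of 10 of the 12 libraries compared was left out, with adjusted p of 0.0566 to 0.117. It held only without replicate 1 of ctrl_yox1_9A at 60 min or replicate 3 of Z3EVp_yox1_9A at 0 min.

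With Yox1, MOB1 had 44.8, 45.0 and 43.9 TPM in Z3EVp_YOX1 at 20 min, against 69.1, 69.6 and 74.8 TPM at 0 min, and 66.9, 67.5 and 74.6 TPM in ctrl_YOX1 at 20 min. The 3 induced libraries were closely spaced and below every library of both other groups. The difference of -0.63 (SE 0.19) had an adjusted p of 0.0817 and was not called. It was called, at -0.62 to -0.66, when libraries were shifted to a common median (adjusted p = 0.00107), when only the 4 groups compared were fitted (0.00386), when the control was not subtracted (0.000208) and with limma-voom on recovered fragments (0.0436). At 60 min MOB1 had 49.9, 69.2 and 67.1 TPM, against 60.9, 78.8 and 78.7 TPM in the control, and the value was -0.23. It was -0.08 without replicate 1 of Z3EVp_YOX1 and with replicate 1 of the control, also the lowest of its group, kept. The ratio of DBF2 to MOB1 within a library was 0.0845 to 0.181 in the 12 libraries with induced Yox1 or Yox1-9A, against 0.324 to 0.575 in the other 24, so the kinase mRNA fell relative to that of its activator in each of them.

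Other genes of mitotic entry were lower in part. Of 7 such genes (CLB1, CLB2, CDC20, SWI5, ALK1, BUD4 and KIN3), Yox1 lowered 4 at 20 min and 1 at 60 min, and Yox1-9A lowered 5 and 4, beside 2.4%, 2.38%, 2.17% and 3.18% of all genes. Their summed level was 74.6 to 106 TPM in Z3EVp_yox1_9A at 20 min, against 187 to 225 TPM in its control, and 129 to 136 TPM in Z3EVp_YOX1, against 215 to 237 TPM. After Yhp1-13A at 20 min 2 of the 7 were called lower, with a sum of 175 to 191 TPM, against 221 to 235 TPM in its control. Of genes for other stages, 2, 4, 0 and 5 of 7 from G1 to S, 0, 7, 0 and 0 of 8 histone genes and 1, 1, 1 and 6 of 8 genes expressed after mitotic exit were called lower after Yox1 at 20 and 60 min and Yox1-9A at 20 and 60 min, as were 6, 3, 6 and 4 of 6 a-cell genes. By DNA content, the paper reports that these short inductions shifted the cell cycle stages of the cultures little or not at all. The part of a change in the share of cells in mitosis in the values of MOB1 and DBF2 was not tested here. In bulk RNA, fewer cells in a stage and less RNA per cell cannot be told apart.

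TEM1 encodes the GTPase that turns the network on. It had 35.8, 36.8 and 44.4 TPM in Z3EVp_YOX1 at 20 min, against 53.1, 47.1 and 67.7 TPM at 0 min and 51.3, 54.3 and 68.8 TPM in ctrl_YOX1 at 20 min. In Z3EVp_yox1_9A it had 36.02, 22.1 and 25.5 TPM at 20 min, against 56.2, 38.0 and 39.1 TPM at 0 min and 50.8, 40.0 and 51.3 TPM in ctrl_yox1_9A. The induced libraries of both strains lay below the 0 min and the control libraries at 20 min. The spread between libraries was wide, however, with a median SD of 17.5% of the mean, and the differences of -0.60 (SE 0.28, adjusted p = 0.567) and -0.56 (SE 0.28, adjusted p = 0.687) were not called, nor were those of -0.45 and -0.29 at 60 min. Without the 20 min library of replicate 1 alone, the Yox1-9A value at 20 min was -0.75 (adjusted p = 0.226). Without the 0 min library of replicate 1 instead, it was -0.38 (adjusted p = 0.787). The Yox1 value at 60 min was -0.31 (adjusted p = 0.735) without replicate 1 of Z3EVp_YOX1 at that time. Without subtraction of the control the Yox1-9A value at 20 min was -0.66 and was called (adjusted p = 0.00787). After Yhp1-13A at 20 min TEM1 had 36.8, 33.2 and 31.9 TPM, against 43.9, 46.1 and 47.5 TPM at 0 min and 45.8, 40.6 and 47.2 TPM in its control. These libraries too lay below both groups, at a difference of -0.45 (SE 0.14, adjusted p = 0.614).

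The regulators of Tem1 were not called in any induction. BUB2, which with BFA1 encodes the GTPase-activating pair, had small positive differences after Yox1. In Z3EVp_YOX1 it had 24.4, 24.5 and 26.0 TPM at 20 min and 28.2, 29.2 and 26.0 TPM at 60 min, against 22.0, 22.5 and 22.4 TPM at 0 min, and in Z3EVp_yox1_9A 30.7, 29.5 and 31.3 TPM at 60 min, against 23.2, 21.0 and 23.4 TPM. These libraries lay above their 0 min groups and above the control at the same time, which had 20.8 to 21.6 TPM in ctrl_YOX1 and 21.9 to 22.6 TPM in ctrl_yox1_9A at 60 min. The differences of 0.21, 0.28, 0.33 and 0.30 for Yox1 and Yox1-9A at 20 and 60 min each had an SE of 0.12, adjusted p of 0.153 to 0.786, and stayed below the size needed for a call.

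BFA1, the other member of that pair, was at 3.47 to 7.36 TPM throughout the table for Yox1 and at 2.41 to 7.08 TPM in the table for Yhp1, and its induction values ran between -0.57 and 0.18 without a call. LTE1, which opposes Bub2 and Bfa1 in the bud, was at 4.55 to 9.18 TPM, with induction values between -0.11 and 0.19. At these levels a library held 118 to 333 fragments of BFA1. Its 95% interval was -1.13 to -0.01 for Yhp1 at 60 min (adjusted p = 1) and -0.38 to 0.74 for Yhp1-13A at 20 min.

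CDC15, the kinase that Tem1 recruits, stayed at 10.7 to 14.9 TPM in the table for Yox1 and 9.46 to 12.8 TPM in that for Yhp1. Its 8 induction values lay between -0.22 and 0.17. NUD1, the spindle pole scaffold on which Mob1 and Dbf2 are loaded, was at 16.2 to 28.8 TPM and 14.1 to 20.3 TPM, with induction values between -0.29 and 0.10. Neither gene was called in any comparison.

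CDC5, the Polo kinase, was not called in any induction. It had 47.4, 45.6 and 44.2 TPM in Z3EVp_YOX1 at 20 min, against 56.5, 56.8 and 58.7 TPM at 0 min and 52.5, 54.7 and 54.95 TPM in ctrl_YOX1 at 20 min. The 3 induced libraries were below both groups, yet the difference was -0.26 (95% interval -0.78 to 0.26). In Z3EVp_yox1_9A it had 46.2, 29.9 and 31.0 TPM at 20 min, against 60.2, 44.2 and 38.9 TPM at 0 min and 49.0, 52.3 and 58.9 TPM in its control at 20 min, a difference of -0.28 (-0.80 to 0.24). Without replicate 1 at 20 min the difference was -0.48 (adjusted p = 0.555). Without replicate 1 at 0 min instead, it was -0.11 (adjusted p = 0.908). At 60 min the values were -0.06 with Yox1, which turned to 0.12 (adjusted p = 0.867) without replicate 1 of Z3EVp_YOX1, and 0.31 with Yox1-9A. Replicate 1 of ctrl_YOX1 at 60 min, which stayed in, was low as well, at 41.4 TPM against 56.6 and 57.2 TPM.

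**Figure D4:**
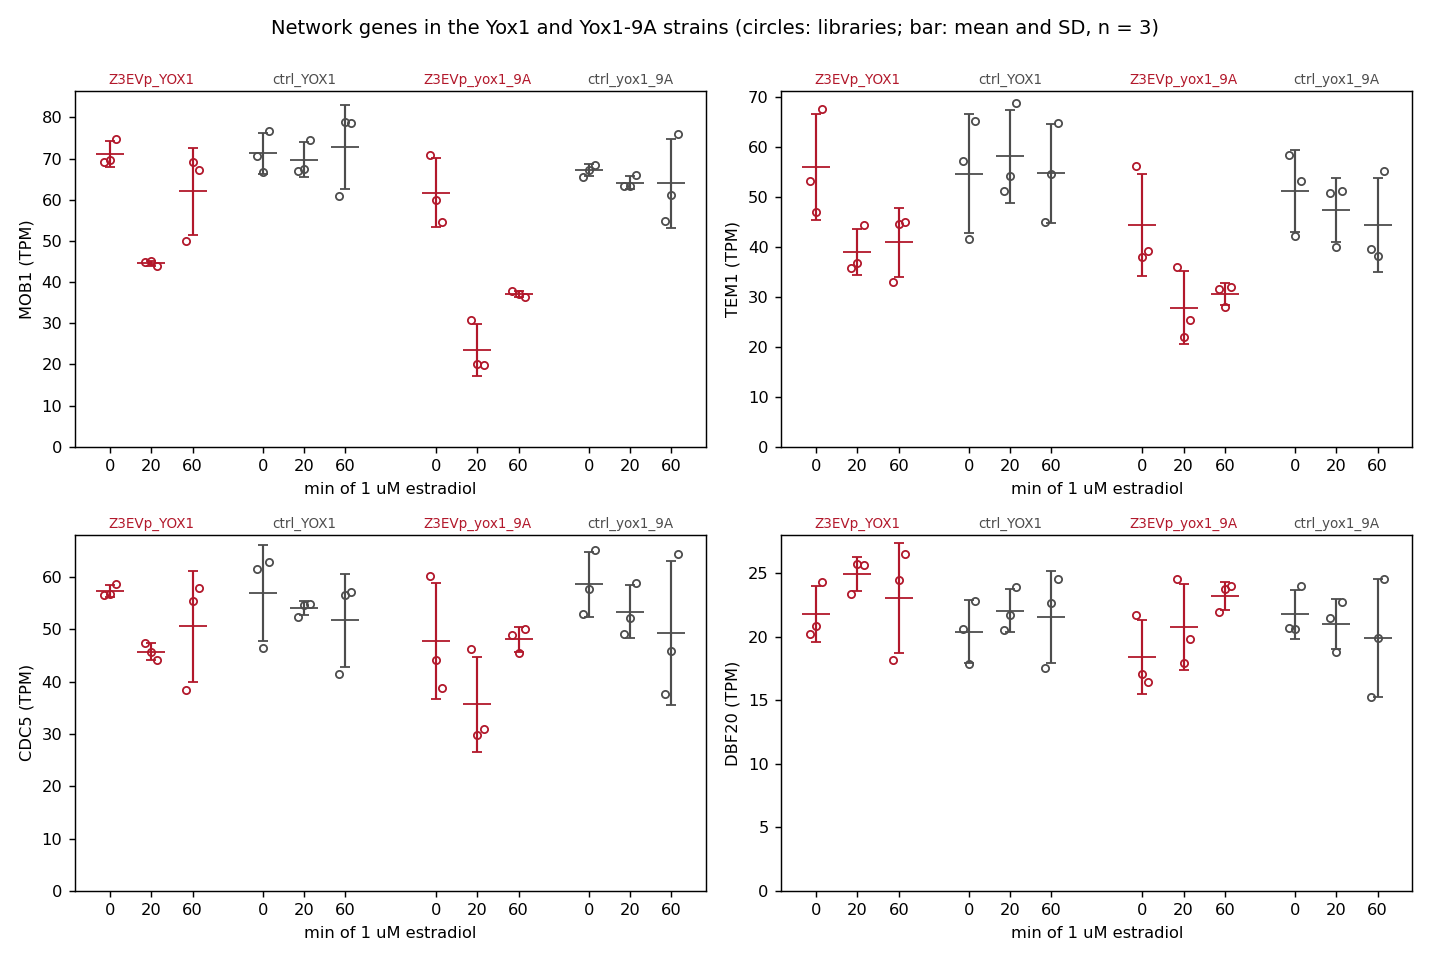
Levels of MOB1, TEM1, CDC5 and DBF20 in TPM in the 36 libraries with Yox1 or Yox1-9A strains, by min of estradiol, each inducible strain (red) left of its control (grey). Circles are libraries and bars the mean and SD of 3. MOB1 is lowest in Z3EVp_yox1_9A at 20 min, at 19.8 to 30.7 TPM, and DBF20 overlaps its control in that strain at 20 min.

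Some of these genes were slightly lower in control strains after estradiol, although no member was called there. In those of the table for Yox1 no adjusted p of a member fell under 0.05, and beside this 15.6% and 3.87% of all genes were called in either direction in ctrl_YOX1 at 20 and 60 min, and 16% and 3.71% in ctrl_yox1_9A. In the controls for Yhp1, where 19.2% and 7.37% of genes were called in ctrl_YHP1 and 17.4% and 7.29% in ctrl_yhp1_13A, CDC5 was lower at both times. It had 53.5, 43.5 and 51.9 TPM at 20 min and 45.4, 43.9 and 43.4 TPM at 60 min in ctrl_YHP1, against 62.9, 57.6 and 64.7 TPM at 0 min, and 56.7, 47.9 and 52.4 TPM and 44.2, 47.2 and 41.6 TPM in ctrl_yhp1_13A, against 71.8, 59.0 and 63.6 TPM. Every library after estradiol was below every 0 min library of its strain. The differences were -0.31 (adjusted p = 0.00179) and -0.47 (3.98e-05) in ctrl_YHP1 and -0.30 (0.00263) and -0.53 (8.62e-06) in ctrl_yhp1_13A, past the p threshold but short of 0.58 in size. Without replicate 2 of ctrl_yhp1_13A at 0 min the last value was -0.60 and was called. At 20 and 60 min 0 and 0 members had an unadjusted p under 0.05 in ctrl_YOX1, 1 and 0 in ctrl_yox1_9A, and 1 and 4 in each of the controls for Yhp1.

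MOB1 and DBF2 were also lower at 60 min in these controls. MOB1 had 59.3, 56.3 and 61.9 TPM in ctrl_YHP1 at 60 min, against 76.0, 75.6 and 85.1 TPM at 0 min (log2 -0.41, adjusted p = 0.00137), and the value in ctrl_yhp1_13A was -0.35 (adjusted p = 0.00507). For DBF2 they were -0.39 (adjusted p = 0.00877) and -0.33 (0.027), and for TEM1 in ctrl_yhp1_13A -0.33 (0.0147). BUB2 had the opposite sign in ctrl_YHP1, at 0.27 (0.0291). Levels were lower in the inducible strains too, where CDC5 in Z3EVp_YHP1 had 58.3, 53.3 and 52.6 TPM at 20 min and 49.96, 50.7 and 52.2 TPM at 60 min, against 66.4, 66.8 and 63.4 TPM at 0 min, and the induction values of CDC5 with the control subtracted were 0.06 and 0.11 for Yhp1 and 0.12 and 0.33 for Yhp1-13A, none called. The response of the controls was not compared between the tables by a test.

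**Figure D5:**
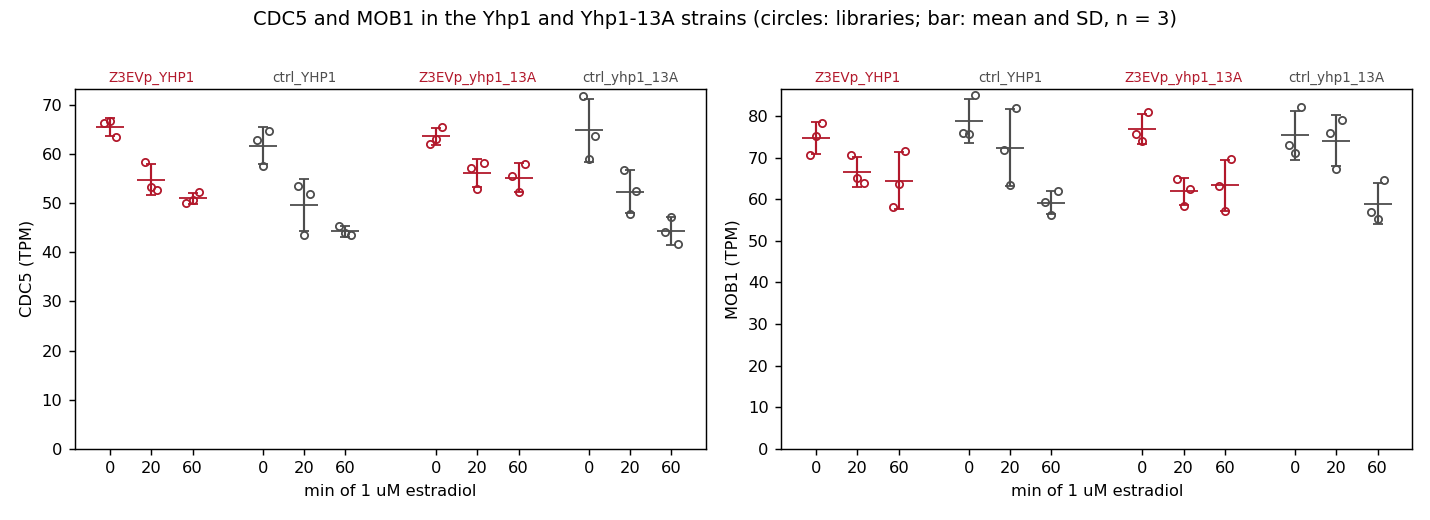
Levels of CDC5 and MOB1 in TPM in the 36 libraries with Yhp1 or Yhp1-13A strains, by min of estradiol, each inducible strain (red) left of its control (grey). Circles are libraries and bars the mean and SD of 3. CDC5 is below its 0 min libraries at 60 min in all 4 strains, and in both controls it is then at 41.6 to 47.2 TPM.

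The repressors were set against each other directly in a joint fit of 6209 genes, in which each table kept its own 0 min and control libraries. For DBF2 the induction value of Yox1 minus that of Yhp1 was -2.63 (SE 0.34, adjusted p = 8.46e-08) at 20 min and -2.21 (SE 0.34, adjusted p = 6.93e-06) at 60 min, and that of Yox1-9A minus Yhp1-13A was -2.58 (SE 0.34, adjusted p = 2.89e-07) and -2.39 (SE 0.34, adjusted p = 8.94e-07). DBF2 thus differed between the Yox1 and Yhp1 inductions in all 4 tests. The strains of each repressor were in a table of their own, so repressor and table cannot be told apart. MOB1 did so for Yox1-9A against Yhp1-13A at 20 min (-1.03, SE 0.23, adjusted p = 0.00923), and its values of -0.59, -0.42 and -0.70 in the other tests were not called. The called members numbered 1, 1, 2 and 1 of 10, beside 1.45%, 1.18%, 0.789% and 1.47% of genes called lower.

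The alleles without Cdk1 sites did not differ from the wild-type alleles by a call in any of the 10 genes. The YOX1 alleles were not induced alike, at 440 to 845 TPM in Z3EVp_yox1_9A and 1113 to 1245 TPM in Z3EVp_YOX1 at 20 min. The paper reports more protein from the mutant alleles. The part of these levels in the comparison was not tested. The induction value of Yox1-9A minus that of Yox1 was -0.26 (95% interval -1.10 to 0.58) and -0.43 (-1.27 to 0.41) for DBF2 and -0.68 (SE 0.27, unadjusted p = 0.0172, adjusted p = 1 by limma) and -0.40 for MOB1 at 20 and 60 min. Over all genes 0% and 0.224% were called in these tests, and 0% and 0.0161% for Yhp1-13A minus Yhp1. Of the 10 genes, 1, 0, 0 and 0 had an unadjusted p under 0.05. The intervals of DBF2 leave room for a decrease of more than 1.5-fold with Yox1-9A relative to Yox1. With the alleles at their own promoters, at 0 min, 0 of 10 genes and 0% of all genes differed, and 0 of 10 had an unadjusted p under 0.05.

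The induction value at 60 min minus that at 20 min was 0.63 (SE 0.29) for DBF2 with Yox1 and 0.46 (SE 0.29) with Yox1-9A. For MOB1 it was 0.40 and 0.68 (SE 0.19, adjusted p = 0.0762). None of these was called, beside 0.528% and 1.15% of genes. The MOB1 value with Yox1-9A was called, at 0.61 to 0.88, when libraries were shifted to a common median and when replicate 3 of ctrl_yox1_9A at 60 min or replicate 1 of Z3EVp_yox1_9A at 20 min was left out. No gene of the table for Yhp1 was called in this comparison (0%). The number of the 10 with an unadjusted p under 0.05 was 2, 2, 1 and 3 for Yox1, Yox1-9A, Yhp1 and Yhp1-13A.

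Other genes of the pathway were read from 4 lists, beside 2.4%, 2.38%, 2.17% and 3.18% of all genes called lower after Yox1 at 20 and 60 min and after Yox1-9A at 20 and 60 min. Of 13 regulators upstream of the network, 12 were found in the tables, and 1 was called lower in 1 induction, namely AMN1, an antagonist of Tem1, at -0.93 (adjusted p = 1.72e-07) after Yox1-9A at 60 min, and their median was -0.03, -0.04, 0.10 and 0.07. Of 12 genes for Cdc14 and its release, 2, 2, 2 and 3 were called lower with Yox1 and then Yox1-9A, each in the order of 20 and 60 min. These were the paralogs SPO12 and BNS1, which promote early release of Cdc14, at -1.04 to -2.30 and -1.33 to -2.20, and the kinetochore and spindle protein SLK19, at -0.68 after Yox1-9A at 60 min. CDC14 itself and its anchor NET1 were not called. The list medians of -0.12, -0.28, 0.04 and -0.07 lay beside 0.02, 0.05, 0.065 and 0.13 over all genes.

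Of 8 targets in mitotic exit and cytokinesis, 3, 1, 3 and 2 were called lower in the same inductions. HOF1, an F-BAR protein of the bud neck, was at -1.69, -1.05, -2.69 and -2.44. IQG1, the IQGAP of the contractile ring, was at -1.10 and -1.57 at 20 min and -1.26 after Yox1-9A at 60 min, and CHS2, the chitin synthase of the primary septum, at -0.66 and -1.08 at 20 min. The list median was -0.26, -0.09, -0.42 and -0.38. None of 7 genes of the RAM network, which uses the related kinase Cbk1 and activator Mob2, was called, at medians of -0.05, 0.09, 0.03 and 0.36. No gene of the 4 lists was called higher. BNS1 (-1.24 and -1.22) and HOF1 (-1.20 and -1.13) were also called lower after Yhp1-13A at 20 and 60 min, where DBF2 was not.

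Over the 12 group means of the table for Yox1, the genes whose pattern was most like that of DBF2 were MCM5 (Pearson r = 0.992), MCM2 (0.992), RGA2 (0.990), TPO3 (0.988) and RGA1 (0.988). MCM2 and MCM5 encode subunits of the replicative helicase. Among the network genes TEM1 (0.915) and MOB1 (0.877) came closest, at ranks 92 and 138. The coefficient was negative for CDC15 (-0.418), DBF20 (-0.497) and BUB2 (-0.822), at ranks 4226, 4599 and 6106 among the 6255 genes tested. All groups share the same 36 libraries and 4 groups with induced repressor, so these correlations describe the pattern only.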

How the data were processed

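Per the study's methods, STAR 2.5.3a placed the authors' paired-end reads on R64-1-1, and featureCounts 1.5.2 gave fragments over exons. They deposited TPM per gene in 2 tables of 36 libraries. The authors' own fragment counts were not used here, and whether the libraries kept strand is unknown here. The labels name depletion of poly-A RNA and the methods its purification. From TPM and exon length whole fragments were recovered for 5935 and 5938 genes (98.7% of values of 1 to 1000 fragments within 0.01 of a whole number), which gave the depth and an added alternative, limma-voom, chosen after seeing the data.

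Groups came from the sample titles. The deposited TPM were fitted as log2(TPM + 1) with limma 3.58.1 (R 4.3.3), with a mean-dependent variance, for 6255 and 6230 genes that averaged 1 TPM or more, in 34 comparisons, after a test on simulated data. The adjusted p is two-sided. The p-values rest on the spread between the 3 libraries of a group, pooled for each gene over all groups of the fit. Replicate numbers were not taken to pair the samples. Medians over all genes reached 0.13 (log2) in 1 induction, Yox1-9A at 60 min, and 0.10 in 2 differences at 60 min. The members, lists and comparisons were chosen with earlier results of these data known. Named genes are the 10 members, YOX1 and YHP1, list genes called in an induction (at most 4 per list) and the 5 genes most like DBF2. Planned protein comparisons were replaced by coding DNA (Biopython 1.88), since no protein table was used here, and the upstream sequence of MOB1 is not reported here. Alternatives were other pseudocounts, filters, scaling, blocks, groups, an unsubtracted control, a fit with no variance trend and left-out libraries.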

Additional observations from a re-analysis of the deposited data

Results flagged for a closer look

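The response to induction differed between Yox1 and Yhp1 for 2 of the 10 genes in a joint fit of both tables with limma, in which the difference itself was tested. DBF2 was lower with Yox1 than with Yhp1 by log2 -2.63 at 20 min (adjusted p = 8.46e-08) and -2.21 at 60 min (adjusted p = 6.93e-06). It was lower with Yox1-9A than with Yhp1-13A by -2.58 at 20 min (adjusted p = 2.89e-07) and -2.39 at 60 min (adjusted p = 8.94e-07). MOB1 was lower with Yox1-9A than with Yhp1-13A by -1.03 at 20 min (adjusted p = 0.00923). In all 5 the 3 induced Yox1 or Yox1-9A libraries lay below their own 0 min libraries and below the control at the same time. The induced mRNA was not equal, with 440 to 1245 TPM of YOX1 and 737 to 914 TPM of YHP1, and the part of that in the difference was not tested. Repressor and table cannot be told apart in these tests.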

How the results depend on the processing

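Among 6626 comparisons of a value or count with an alternative setting, 22 values of a member crossed a threshold and 21 counts of called members changed. Of values called in the main fit or the alternative, 0 reversed direction. Values called in neither were not checked for direction, and some changed sign, such as CDC5 with Yox1 at 60 min (-0.06, and up to 0.12 with 1 library left out). DBF2 stayed called in all 4 Yox1 and Yox1-9A inductions under every alternative run, at log2 -1.82 to -3.58 over the settings and -2.08 to -3.51 with 1 library left out. The count lowered by Yox1 at 20 min was 2, with MOB1 added, under the common median, with only the 4 groups compared, without subtraction of the control, with limma-voom and with the replicate block per strain (MOB1 -0.63, adjusted p = 0.017). The replicate block over the whole table left it at 1 and changed no other count of called members, and it is given here only, since same-number libraries correlated (median 0.163 in the table for Yox1 and 0.344 in that for Yhp1, against -0.087 and -0.195 for libraries of different number, across strains in both cases) but not in every pair (99 and 142 of 162 over 0.1, the lowest -0.595 and -0.194). For Yox1-9A at 60 min the count ran from 1 to 2 with 1 library left out, where MOB1 at -0.50 to -0.66 lost its call. Without subtraction of the control 1 gene, DBF2 at -0.62, was called after Yhp1-13A at 60 min, so this call rests on whether the fall of its control is removed. The control response of Yhp1-13A at 60 min ran from 0 to 1, with CDC5 at -0.60 without replicate 2 of ctrl_yhp1_13A at 0 min. With the common median the count for Yox1-9A minus Yhp1-13A at 60 min was 2 (MOB1 -0.77) and that for the time difference of Yox1-9A was 1 (MOB1 0.61). The count for the time difference ran from 0 to 1 with 1 library left out (MOB1 0.81 without replicate 3 of ctrl_yox1_9A at 60 min and 0.88 without replicate 1 of Z3EVp_yox1_9A at 20 min). The cause of these changes was not tested. BFA1 does not reach a mean of 5 TPM in the table for Yhp1 and has no value under that filter. DBF2 had 81 fragments or more per library, and the part of depth in its values was not tested.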

Other observations

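The 17 genes whose 300 bases around the start hold the Mcm1 box, homeodomain and forkhead cores together were all tested, and most were not called. Called lower were 2 after Yox1 at 20 min (DBF2 and YNL058C at -1.03), 1 at 60 min (DBF2), and 3 after Yox1-9A at either time (DBF2, YNL058C and ATF2, an alcohol acetyltransferase gene), beside 2.4%, 2.38%, 2.17% and 3.18% of all genes. Their median was -0.06, -0.09, 0.04 and 0.05. These genes were chosen after the DBF2 promoter had been seen, and 14 of the 17 were called in none of these 4 inductions.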
